A study of Drosophila melanogaster with 4 samples.

Results

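Isolated autosomal H3K9ac clusters are stretches of enriched chromatin that stand alone on the large autosome arms of the fly. They were taken from the authors' whole-series list of enriched regions, called clusters here. A cluster was isolated when it lay on 2L, 2R, 3L or 3R, was shorter than 10 kb and had at least 10 kb of sequence free of other clusters of that list on each side. This held for 388 of the 12182 clusters of the list, or 4.18% of the 9272 clusters under 10 kb on these arms. The other 8884 clusters under 10 kb on the same arms served for comparison.

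The data came from chromatin immunoprecipitation and sequencing (ChIP-seq) with an antibody against H3K9ac, in nuclei from heads of Drosophila melanogaster. All flies were mixed adults of the wild-type strain Oregon-R, raised in population cages. The study held 2 ChIP libraries and 2 input libraries, and the labels name each input as the background of the ChIP library of the same number. The authors deposited 1 cluster list for each ChIP replicate and 1 for the whole series. Whether the ChIP replicates were drawn from different fly populations is not labelled, so their spread may be technical. Read depth is unknown.

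H3K9ac is histone H3 acetylated at lysine 9. Acetyltransferases such as Gcn5 place the mark, deacetylases remove it, and it is found mainly around the start sites of transcribed genes. Genes lie close together in most of the fly euchromatin, whereas the sequence next to the centromeres is rich in repeats and poor in genes. A fly head mixes nuclei of neurons, photoreceptors, glia, fat body and muscle. A weak cluster in such a mixture may be strong in few cells or weak in many, and these lists cannot tell the cases apart. Positions are those of FlyBase release 5. No gene annotation or genome sequence of that release was used here, so clusters are described by position, and neither genes nor sequences are named.

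The rule used lengths and distances in the whole-series list, so the following values describe the choice. Isolated clusters had a median distance of 13.9 kb to their nearest cluster, with quartiles of 11.5 and 19.6 kb, against a median of 1.15 kb for the other clusters. The distance was over 20 kb for 93 clusters and over 40 kb for 15. The first and last cluster of each arm have a neighbour on 1 side only and were not counted as isolated. Of these 8 clusters, 3 would otherwise have passed. Just inside the distance limit were 3R 24333504 to 24334532 with 10.005 kb and 3R 4327854 to 4329198 with 10.03 kb. Just outside were 3L 19774570 to 19776060 with 9.999 kb and the neighbours 2R 1180906 to 1183992 and 2R 1193978 to 1196488, which lie 9.985 kb apart. The longest isolated clusters measured 9187 bp and 7953 bp, and 2 clusters of 11557 bp and 11959 bp met the distance limit but not the length limit.

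Isolated clusters were shorter than the other clusters. Their median length was 2029 bp, with quartiles of 1421 and 2820.5 bp, against 2419 bp, with quartiles of 1697 and 3747.5 bp. Clusters shorter than the shortest entry of the replicate lists, 1301 bp, made up 17.5% of the isolated and 11.4% of the other clusters. The 5 longest isolated clusters spanned 6883 to 9187 bp. On 3R lay 4 of them, and each of the 5 overlapped clusters of both replicates. The longest, 3R 6431402 to 6440588, had a whole-series score of 0.783 and scores of 0.836 and 0.839 in replicates 1 and 2. The third, 2R 8518392 to 8525918, was split into 3 clusters in each replicate.

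Support in the replicates was counted as an overlap of at least 1 bp with a cluster of the replicate list. No p-value was computed, because all lists stem from the same libraries, clusters are not replicates and the isolated clusters were chosen on 1 of these lists. Replicate 1 overlapped 222 of the 388 isolated clusters (57.2%, exact Clopper-Pearson 95% interval 52.1 to 62.2), against a background of 63.8% of all autosomal clusters under 10 kb. Replicate 2 overlapped 254 (65.5%, 60.5 to 70.2), against 72.6%. Both replicates overlapped 200 isolated clusters (51.5%), against 58.3%, and neither did so for 112 (28.9%), against 21.8%. Replicate 1 alone overlapped 22 (5.67%, background 5.53%) and replicate 2 alone 54 (13.9%, background 14.4%). The intervals cover counting error only and treat clusters as independent. Isolated clusters were thus found again less often than autosomal clusters at large in each replicate.

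At matched length this order turned. The other clusters were weighted so that 9 length classes had the same shares as among the isolated clusters. The weighted share was 52.6% in replicate 1 and 62.5% in replicate 2, so that isolated clusters lay 4.65 and 2.92 percentage points higher. Over the replicates the mean difference was 3.79 ± 1.23 points (SD, n = 2), against -7.20 ± 0.424 points without matching. The weighted shares lay within the counting intervals of the isolated clusters in each replicate taken alone. For clusters overlapped by both replicates the weighted share was 46.03%, or 5.51 points below that of the isolated clusters. It lay just under their counting interval of 46.45 to 56.6%. For clusters overlapped by neither replicate the weighted share was 30.9%, against 28.9% of the isolated clusters. The difference was 0.389 ± 0.845 points among the upper 50% of the list by score, and 1.89 ± 1.70 points with a distance limit of 5 kb.

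The isolated clusters that the replicates shared were longer at the median than those they did not, though the lengths overlapped. Those found in both measured 1649 to 9187 bp, and those found in neither 1001 to 2951 bp. No isolated cluster of up to 1.6 kb was overlapped by both replicates (0 of 129), and 93 of them (72.1%) were overlapped by neither, against 74.5% of the 1940 other clusters of that length. Replicate 1 overlapped few of those others too, at 1.12% up to 1.2 kb, 7.28% at 1.2 to 1.4 kb and 15.7% at 1.4 to 1.6 kb. Their share in both replicates can be no higher than that. Between 1.6 and 2 kb, 30 of 62 isolated clusters were overlapped in replicate 1 and 39 in replicate 2 (48.4% and 62.9%), against 41.4% and 57.1% of the others. Over 2.5 kb, both replicates overlapped 121 of 128 (94.5%), against 89.99% of 4237 other clusters. All 41 isolated clusters over 4 kb were found in both. Of the others, replicate 1 overlapped 96.5% at 4 to 5 kb and 98.95% at 5 to 10 kb, and replicate 2 overlapped 99.3% and 99.8%. In 7 of the 9 length classes the share was higher among isolated than among other clusters in both replicates. These include the classes of 4 to 5 kb and 5 to 10 kb. There the isolated clusters were few (18 and 23) and the others near 100%, so a higher share says little. In the class of 1.2 to 1.4 kb it was lower in replicate 1, at 2.38% against 7.28%, and equal at 16.7% in replicate 2. At 1.4 to 1.6 kb it was lower in replicate 2, at 30.6% against 34.3%.

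**Figure D1:**
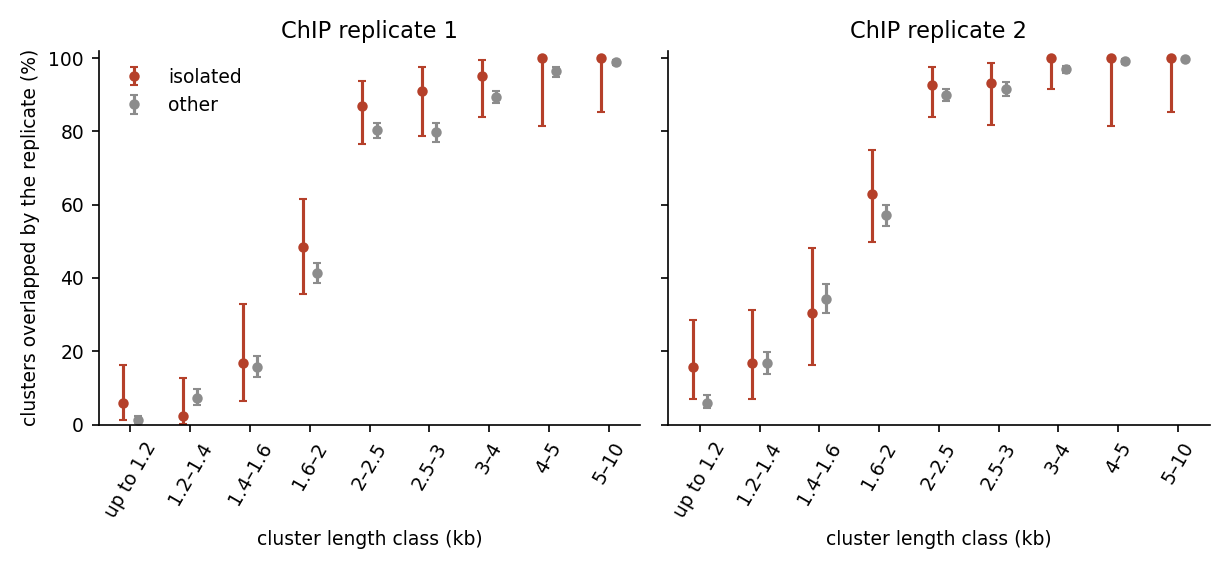
Share of clusters overlapped by replicate 1 (left) and replicate 2 (right), in percent, by cluster length class in kb. Red points are isolated and grey points other autosomal clusters, with exact 95% intervals; both rise from under 20% below 1.4 kb to at least 96% above 4 kb, and the intervals of the isolated clusters are wide.

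The deposited score of the whole-series list has no stated scale and is compared only within a list, unless said otherwise. Its median was close in isolated and other clusters. It was 0.416 in isolated clusters, with quartiles of 0.333 and 0.743. In the other clusters it was 0.447, with quartiles of 0.350 and 0.702. Weighted to the same lengths, the median of the other clusters was 0.3998. The difference was 0.0161 over all 388 isolated clusters. In the replicate lists only clusters with a 1-to-1 partner could be compared, 220 isolated ones in replicate 1 and 246 in replicate 2. The differences there were 0.106 and 0.0504. As these leave out clusters that a replicate did not find, their SD of 0.0392 does not measure the spread of the whole-series difference. Isolated clusters with such a partner had a median of 0.731 against 0.625 in replicate 1, and of 0.631 against 0.580 in replicate 2.

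The distribution of scores differed from that of the other clusters in its upper part. Of the isolated clusters, 51 (13.1%) lay in the highest score decile of the autosomal clusters under 10 kb, against 7.01% of the other clusters at matched length. This share was not particular to isolated clusters. Without length matching, that decile held 12.97% of the clusters with their nearest cluster at 2 to 5 kb and 13.3% at 5 to 10 kb. It held 7.57% of those with a neighbour within 1 kb, the largest class of the others. The seventh decile held the fewest, 19 isolated clusters (4.90%), against 7.74%. The lowest decile held 12.4%, against 12.9%. All 51 isolated clusters of the highest decile were found in both replicates, as were all 32 of the eighth and all 33 of the ninth decile. The eighth decile starts at a score of 0.625. Of the other clusters scoring over 0.6, both replicates found 99.3%, so this goes with a high score in either kind of cluster. Of the 48 in the lowest decile, both replicates found 10. The share among other clusters of that decile was not computed, so this count does not set isolated clusters apart from others.

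**Figure D2:**
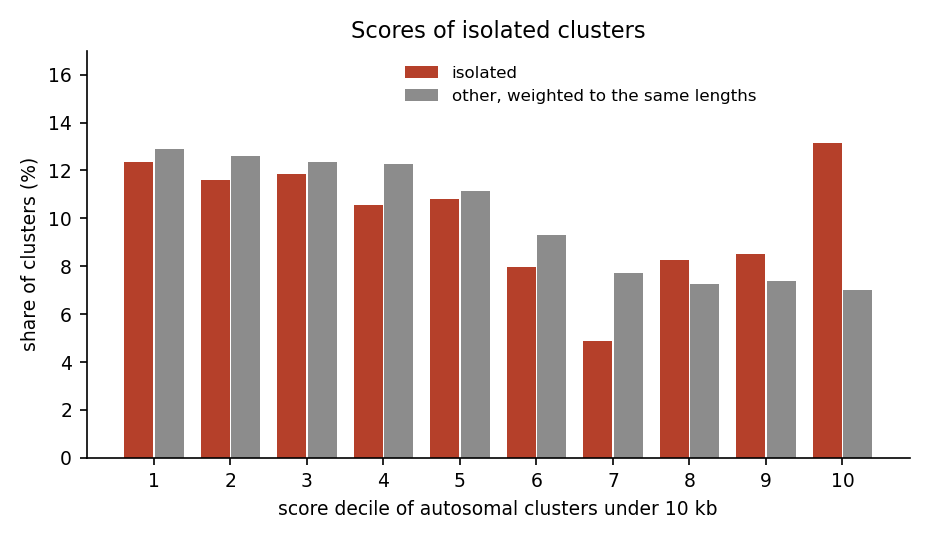
Share of clusters, in percent, in each score decile of the autosomal clusters under 10 kb. Red bars are the 388 isolated clusters and grey bars the other clusters weighted to the same lengths; the isolated clusters fall to 4.90% in the seventh decile and reach 13.1% in the tenth.

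Short and long isolated clusters differed in how their scores compared with those of other clusters. Up to 2.5 kb, the median score was 0.363 in 260 isolated and 0.361 in 4647 other clusters. Over 2.5 kb it was 0.919 in 128 isolated clusters, with quartiles of 0.562 and 1.31, against 0.654 in 4237 others, with quartiles of 0.489 and 0.986. At matched length the others had 0.629, a difference of 0.290. Through 1-to-1 partners the difference was 0.277 in replicate 1 and 0.174 in replicate 2. The excess was smaller away from the centromeres: beyond 2 Mb of the centromere-proximal end the whole-series value was 0.140, with 0.134 for replicate 1 partners and 0.102 for replicate 2 partners. The excess was largest at 2.5 to 3 kb, where the medians were 0.924 in 45 isolated and 0.535 in 909 other clusters.

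No isolated cluster of up to 2 kb scored above 0.583, among 191 of that length. A score over 0.6, a limit chosen after the values were seen, was reached by 117 isolated clusters, of which the shortest measured 2159 bp. All 117 were overlapped by both replicates, as were 99.3% of the 2846 other clusters above that score. The 112 isolated clusters found in neither replicate were short, with a median of 1295 bp, and scored 0.0646 to 0.583, with a median of 0.347. Those found in replicate 2 alone had medians of 1620 bp and 0.348, and those found in replicate 1 alone had 1663 bp and 0.328. The 200 clusters found in both had medians of 2736 bp and 0.733.

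**Figure D3:**
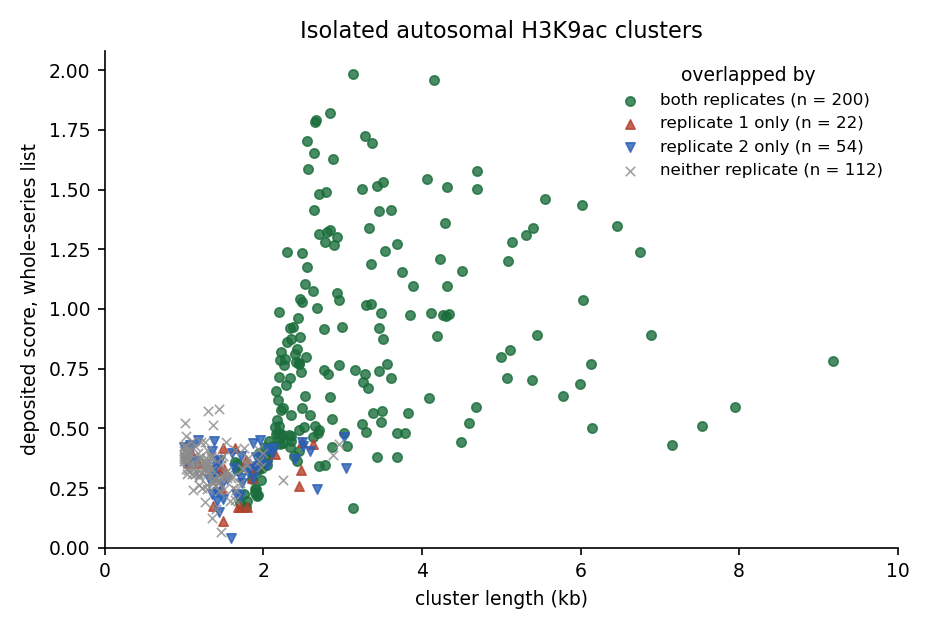
Whole-series score against length in kb for the 388 isolated clusters. Symbols give the replicates that overlapped a cluster; scores stay at or below 0.583 up to 2 kb, and all 117 clusters above 0.6 were found in both replicates.

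The 10 strongest isolated clusters were each found in both replicates. Their whole-series scores lay between 1.63 and 1.98, and the lengths between 2557 and 4147 bp. The highest belonged to 3L 23141318 to 23144450, where the whole-series score was 1.98 and the replicate scores were 2.01 and 1.96. Its nearest cluster lay 20.6 kb away. It was followed by 3L 4038278 to 4042424 with a whole-series score of 1.96 and replicate scores of 2.07 and 1.96. The best of 2R was 2R 402170 to 404830 with 1.79, and 1.91 and 1.64 in the replicates. The best of 3R was 3R 19518698 to 19521352 with 1.78, and 1.88 and 1.69. The best of 2L was 2L 21572502 to 21577196 with 1.50, and 1.57 and 1.43. All 10 scored higher in replicate 1 than in replicate 2, if both lists use 1 scale. So did 68.2% of the isolated and 62.2% of the other clusters with a 1-to-1 partner in both lists. Within 2 Mb of the centromere-proximal end of their arm lay 6 of the 10.

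At the other extreme, the highest scores among isolated clusters found in neither replicate were 0.583 at 3R 24078576 to 24080014, 0.572 at 2L 11314840 to 11316144 and 0.523 at 2L 7351166 to 7352176. These measured 1439, 1305 and 1011 bp. The next were 3R 7213458 to 7214820 with 0.516 and 3R 24333504 to 24334532 with 0.467.

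Isolated clusters occurred along all 4 arms. There were 130 on 3R, 105 on 3L, 94 on 2L and 59 on 2R, or 4.66, 4.28, 4.08 and 2.79 per Mb. They were 4.83% of the clusters under 10 kb on 3R, 4.66% on 3L, 4.198% on 2L and 2.83% on 2R. Median scores were 0.422, 0.386, 0.410 and 0.482 in the same order. Both replicates overlapped 68 of those on 3R, 54 on 3L, 43 on 2L and 35 on 2R. Of the 95 full windows of 1 Mb, 2 held no isolated cluster, and the median was 4. The most lay in 3R 3000001 to 4000000, with 15 of 83 clusters under 10 kb, of which both replicates found 6. The median score of these 15 was 0.389.

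**Figure D4:**
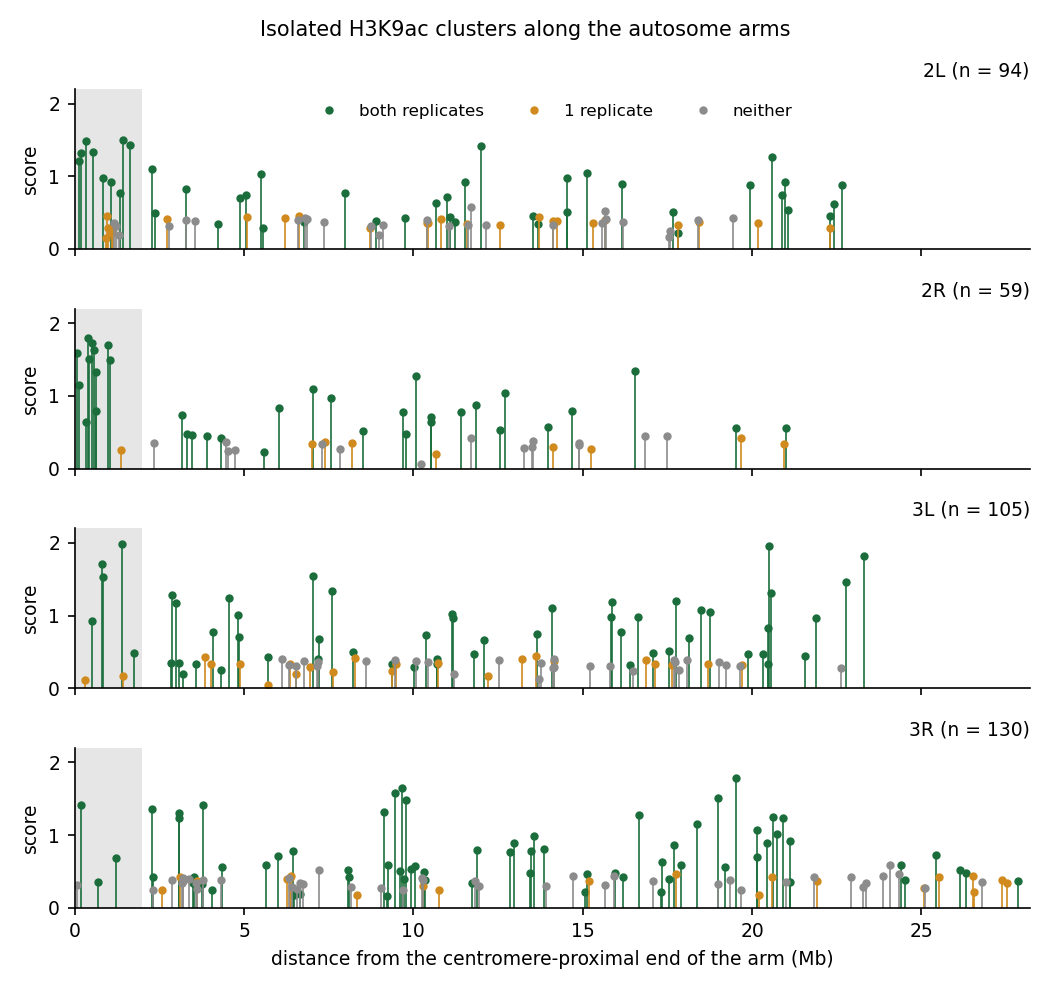
Isolated clusters along each arm, by distance in Mb from the centromere-proximal end, with the whole-series score as height and the colour giving replicate support. Grey shading marks the 2 Mb nearest that end; on 2L, 2R and 3L, but not on 3R, tall clusters gather there.

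Near the centromere-proximal ends, isolated clusters were a larger share of all clusters and scored higher. In the 1 Mb nearest that end, 25 clusters were isolated, 16.8% of those under 10 kb, against 3.98% of the clusters beyond. The other clusters were sparser there, at 31.0 per Mb against 94.6 beyond, and sparse clusters pass the distance limit more easily. The share rests on the distances that the rule used, so it says little beyond this spacing. The 25 had a median score of 1.31, against 0.407 for the 363 beyond, and 15 of the 25 lay in the highest score decile, against 36 of the 363. Replicate 1 overlapped 21 of the 25 (84.0%) and replicate 2 overlapped 23 (92.0%), against 55.4% and 63.6% beyond. The 124 other clusters of this zone were overlapped to 79.0% and 77.4%, so support was high there in both kinds of cluster. Through 1-to-1 partners the median scores were 1.49 against 0.675 in replicate 1 and 1.28 against 0.619 in replicate 2.

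Taking the nearest 2 Mb, 40 isolated clusters had a median score of 0.953, against 0.407 for the other 348, a difference of 0.546. Length differed too, with medians of 2674 and 1968 bp. Weighted to the lengths of the 40, the isolated clusters farther away had a median score of 0.504, so that 0.449 of the difference was present at matched length. The difference fell to 0.321 without 2R and was 0.925 without 2L. With a distance limit of 5 kb it was 0.348. The share found in a replicate was 20.8 ± 2.56 points higher near the end (SD, n = 2), 14.1 points without 2R and 29.2 points without 2L. Against isolated clusters farther away weighted to the same lengths, it was 5.90 points higher in replicate 1 and 4.19 in replicate 2, a mean of 5.05 ± 1.21 (SD, n = 2).

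The arms were not alike in this zone. On 2R, 10 of 19 clusters under 10 kb in the first 1 Mb were isolated. Both replicates found all 10, at whole-series scores of 0.636 to 1.79 with a median of 1.55, against 0.444 for the 49 isolated clusters in the rest of the arm. Among them was the run 2R 505624 to 633874, in which 4 isolated clusters followed each other over 128.3 kb with scores of 0.798 to 1.73. On 2L, 8 of 21 were isolated, with a median of 1.09 and a range of 0.148 to 1.48, and 5 were found in both replicates. On 3L, 4 of 8 were isolated, and their scores were 0.112, 0.918, 1.53 and 1.70. On 3R, 3 of 101 were isolated, with a median of 0.360, against 0.423 in the rest of the arm. The other clusters of the nearest 1 Mb had median scores of 0.994 on 2R (9 clusters), 0.988 on 2L (13), 0.347 on 3L (4) and 0.449 on 3R (98). Over all 4 arms they had 0.479, against 0.447 for the other clusters beyond. Of the 124 in the nearest 1 Mb, however, 98 lay on 3R. On 2L, 2R and 3L together, the 26 other clusters had a median of 0.817, and 9 lay in the highest score decile. The 22 isolated clusters there had 1.32, and 14 lay in that decile. Both replicates found 21 of the 26 and 18 of the 22. High scores near these ends were thus not confined to isolated clusters.

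The number of isolated clusters per Mb, in contrast, did not set these ends apart in every list. It was 5.00 in the nearest 2 Mb and 3.93 beyond, a ratio of 1.27. Isolation defined within the list of replicate 2 gave 1.14 and within that of replicate 1 gave 0.884, which turns the direction. The ratio was 0.810 with a distance limit of 5 kb and 3.85 with 20 kb. At the opposite ends, the outer 2 Mb held 20 isolated clusters, 2.50 per Mb, with a median score of 0.451, and 11 of them were found in both replicates.

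The most remote isolated clusters also lay mostly at the centromere-proximal ends. Of the 10 with the greatest distance to a neighbour, from 44.4 to 150.3 kb, 8 lay within 2 Mb of that end. Distance is what the rule used, and the other clusters were sparser there, at 51.6 per Mb against 95.6 beyond. The most remote, 3L 24224314 to 24225810, had 150.3 kb of free sequence on 1 side and 303.7 kb on the other. Its score was low, 0.112, and it was found in replicate 1, with 0.212, but not in replicate 2. The next in order, 2R 1380868 to 1383312 with a distance of 76.0 kb and 3R 2567234 to 2568694 with 57.8 kb, likewise were found in replicate 1 alone, and scored 0.259 and 0.250. The other 7 were found in both replicates. They included the neighbours 2L 22816670 to 22819366 with 1.31 and 2L 22873710 to 22877942 with 1.21, which lie 54.3 kb apart. With them were 2R 73932 to 76492 with 1.59 and 2R 127584 to 131330 with 1.15, which lie 51.1 kb apart.

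Support and score were then followed over all distances to the nearest cluster, to place the 10 kb limit. Both replicates overlapped 59.1% of the clusters with a neighbour within 1 kb, 59.5% at 2 to 5 kb, 55.0% at 5 to 10 kb, 53.2% at 10 to 20 kb and 44.9% at 20 to 40 kb. Median length fell from 2513 to 1791 bp over the same classes. With each class weighted to the lengths of the isolated clusters, support in replicate 1 was 50.7% within 1 kb, 54.8% at 5 to 10 kb, 56.0% at 10 to 20 kb and 60.2% at 20 to 40 kb. In replicate 2 it was 63.4%, 62.1%, 65.4% and 67.4%. At 1 to 2 kb and 2 to 5 kb the weighted support was 52.6% and 54.9% in replicate 1, and 62.4% and 61.4% in replicate 2. From 5 to 10 kb to 10 to 20 kb it was higher in both replicates, but the steps were small and no interval was computed for weighted shares. For the 295 clusters at 10 to 20 kb, the exact interval of the unweighted share in both replicates was 47.3 to 59.0%. Among the 15 clusters beyond 40 kb, both replicates overlapped 8 (53.3%, exact interval 26.6 to 78.7), and the weighted support was lower than at 20 to 40 kb, at 54.2% in replicate 1 and 63.7% in replicate 2. The highest score decile held 7.57% of the clusters with a neighbour within 1 kb, 12.97% at 2 to 5 kb, 13.3% at 5 to 10 kb and 11.9% at 10 to 20 kb. Beyond 40 kb it held 6 of 15 clusters, and 9 of those 15 lay within 2 Mb of a centromere-proximal end.

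Isolated clusters stood alone in the replicate lists as well. Of the 222 found in replicate 1, 220 (99.1%, exact interval 96.8 to 99.9) were isolated in that list by the same limits, and of the 254 found in replicate 2, 241 (94.9%, 91.4 to 97.2) were. The 10 kb on either side of the 388 clusters held 0 further clusters of replicate 1 and 9 of replicate 2. The whole-series list overlapped 99.9% and 99.6% of the clusters of these arms in the replicate lists, so this largely follows from the rule. The reverse was less often the case. The whole-series list held 9740 clusters on these arms, against 7377 and 8199 in the replicate lists. The distance limit is thus harder to pass in the whole-series list. The list of replicate 1 held 663 isolated clusters, of which 220 (33.2%) lay on an isolated cluster of the whole-series list, and that of replicate 2 held 559, of which 241 (43.1%) did.

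Boundaries were close between lists. Across 220 isolated clusters with a 1-to-1 partner in replicate 1, the partner measured a median of 0.960 times the length, the midpoints differed by a median of 39.0 bp, and 95.4% of the cluster was covered. In replicate 2 the values were 0.95, 44.2 bp and 94.2% across 246. The other clusters, which were not matched for length here, had offsets of 56.0 and 61.8 bp.

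The scores of the replicates went together among isolated clusters. Across the 192 with a 1-to-1 partner in both lists, Spearman's rho was 0.91 and Pearson's r 0.93, against 0.88 and 0.92 across 4466 other clusters. These values describe the lists, since clusters of 1 library share its depth and background, and they assume that both replicate lists use 1 scale. Replicate 1 had the higher score in 131 of the 192 (68.2%), against 62.2% of the others. Within 2 Mb of the centromere-proximal end it was higher in 23 of 28, with medians of 1.51 and 1.30, and farther away in 108 of 164, with 0.731 and 0.664. The widest gap was at 3L 24020896 to 24023660, with 1.23 in replicate 1 and 0.519 in replicate 2. The next was at 2R 558456 to 561340, with 1.94 and 1.28.

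**Figure D5:**
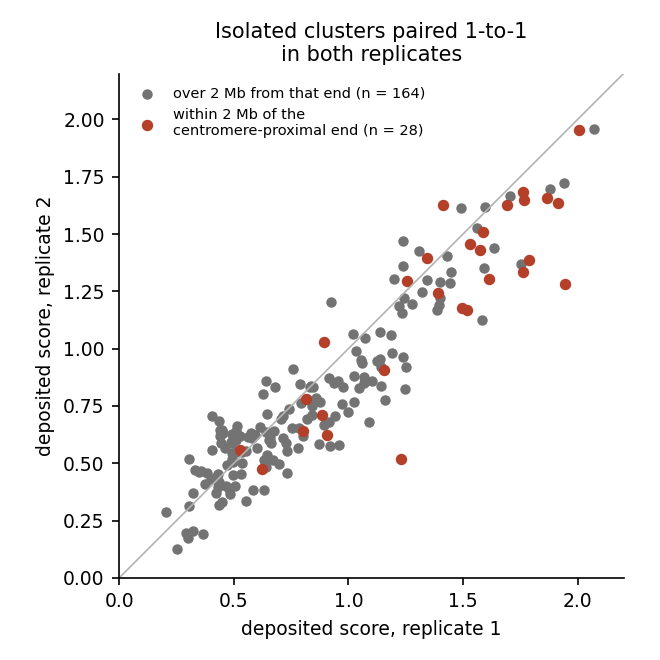
Deposited scores in replicate 1 and replicate 2 for the 192 isolated clusters with a 1-to-1 partner in both lists; the line marks equal scores. Red points lie within 2 Mb of a centromere-proximal end, and 23 of these 28 fall on the replicate 1 side of the line.

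Some isolated clusters were immediate neighbours of each other, which the rule favours, since a neighbour already has 1 free side. Of the 388, 188 (48.5%) had another isolated cluster as an immediate neighbour, in 50 pairs, 17 runs of 3 and 8 runs of 4 or more. The longest run, 3R 6276610 to 6466000, held 7 isolated clusters over 189.4 kb. Their scores ran from 0.171 to 0.783 with a median of 0.406, and both replicates found 2 of the 7. The run 3R 9661948 to 9786452 held 4 over 124.5 kb, with scores from 0.248 to 1.65, of which both replicates found 3. The run 3R 10250122 to 10339656 held 5, all at or below 0.492, of which both replicates found 2. Strong and weak isolated clusters thus lay next to each other in some runs, while the run at the start of 2R held strong ones throughout.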

How the data were processed

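H3K9ac ChIP-seq clusters were available for each ChIP replicate and for the series as a whole. Alignment used Bowtie 0.12.7, per the submitters' processing notes. Per the file headers, coordinates are those of FlyBase release 5. The authors deposited cluster positions and 1 score per cluster. Not given in the sources used here are the scale of the score, the caller, its thresholds and the joining of replicates. Read depth is unknown, so no interval that needs it was computed.

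Samples were grouped by their titles. Distance is the number of bases between neighbouring clusters, and the 1 region named as depleted was left out. Partners are 1-to-1 when each overlaps no other cluster. Named clusters were the 10 highest-scoring and the 10 most remote, the 5 longest, the best of each arm in both replicates, the 5 best in neither replicate and those beside each limit. The clusters with the widest score gaps and the long runs were chosen after their values were seen. The members, classes and comparisons were chosen with earlier results of these data known. The comparisons by centromere distance within the isolated clusters and by length above 2.5 kb were added after the data were seen. The counting was tested on simulated data and against bedtools 2.31.1. Scripts ran in Python 3.11.15 with pandas 2.3.3 and numpy 2.4.6; intervals came from scipy 1.17.1 and figures from matplotlib 3.10.9.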

Additional observations from a re-analysis of the deposited data

How the results depend on the processing

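Of 64 alternative values, 39 moved by less than the SD between replicates. This count does not measure robustness. Where the main value is the mean of 2 replicates, leaving 1 out always moves it by less than their SD. Some other settings changed few members, and for the score the SD came from clusters with 1-to-1 partners only. The mean difference in replicate support at matched length, 3.79 points, was 5.75 with a reciprocal overlap of 50%, 0.389 in the upper 50% of the list by score, 2.44 matched on length and score, 1.89 and 5.64 with distance limits of 5 and 20 kb, and reversed to -7.20 without length matching. With each replicate left out it ranged from 2.92 to 4.65. The score difference, 0.0161, was 0.171 in the upper 50% by score and reversed to -0.0313 without matching. Replicates alone gave 0.0504 to 0.106, among clusters with a 1-to-1 partner only. Isolation of partners ranged from 94.8% at 5 kb to 99.1% in replicate 1, and was 94.9% in replicate 2. The density ratio at the centromere-proximal ends, 1.27, reversed to 0.810 at 5 kb, was 3.85 at 20 kb, and was 0.884 and 1.14 in the replicate lists. The score difference there, 0.546, was 0.907 for the nearest 1 Mb, 0.925 without 2L, 0.321 without 2R, 0.667 without 3R, 0.348 at 5 kb, 0.785 at 20 kb, 0.720 for clusters of at least 1301 bp and 0.628 to 0.743 in the replicates. The support difference there, 20.8 points, was 5.05 at matched length, 29.2 without 2L and 14.1 without 2R, and 19.0 to 22.6 in the replicates. The score excess over 2.5 kb, 0.290, was 0.140 beyond 2 Mb of the centromere-proximal end and 0.174 to 0.277 in the replicates. The causes were not tested. Alternatives by arm, by zone, by matched length within the isolated clusters and for clusters over 2.5 kb were chosen after seeing the data. Counting distance as start minus end gave 389 isolated clusters, and counting the first and last clusters of the arms gave 391. No paired analysis was possible because the lists give no separate values for the input libraries.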

Other observations

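The list of replicate 2 held 7 isolated clusters that overlap no cluster of the whole-series list, and that of replicate 1 held 0. Isolated on 1 side only were 2462 autosomal clusters under 10 kb of the whole-series list.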
